A study of Mus musculus with 14 samples.

Results

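The integrin and laminin genes described here were the 40 genes of the count table whose mouse symbols name an integrin α subunit (18 genes), an integrin β subunit (8 genes) or a laminin α, β or γ chain (5, 3 and 3 genes), together with the basement membrane linkers *Nid1*, *Nid2* and *Hspg2*. All 40 were found among the 24454 genes of the table. They were measured by RNA-seq in 14 libraries of cells sorted from pooled mouse forelimb buds that carried a *Sox9* allele with an EGFP reporter on a mixed background. S9- and S9+ denote cells without and with this reporter signal, and every sort excluded dead cells and cells with surface markers of endothelium, blood and ectoderm. At embryonic stage E10.5, 3 libraries each were made of S9-JAG1+ limb bud mesenchymal progenitors (LMPs), sorted for the Notch ligand JAG1 and against SCA-1, of S9-Pαhi LMPs, sorted for high PDGFRα and against JAG1 and SCA-1, and of S9+Pαhi osteo-chondrogenic progenitors (OCPs). The S9-SCA-1+ cells of the same stage, sorted against JAG1, had 2 libraries, with the replicate numbers 2 and 3. Chondroblasts (CBs) were S9+Pαhi cells that the study describes as expressing *Col2a1*, a gene for which its sorting methods name no reagent. CBs came from E11.5 and had 3 libraries. Population and stage therefore cannot be told apart in any comparison with CBs. Replicates were separate sorts of pooled buds, so that their spread holds the variation between pools and not between embryos.

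Integrins are cell surface receptors made of 1 α and 1 β subunit, which hold cells to the extracellular matrix and signal from it. Laminins are trimers of an α, a β and a γ chain that polymerize into the sheet of the basement membrane. Nidogens (*Nid1*, *Nid2*) and the heparan sulphate proteoglycan perlecan (*Hspg2*) link this sheet to the collagen IV network. In the limb bud a basement membrane lies under the ectoderm and around vessels, and mesenchymal condensation and the migration of muscle precursors both involve contacts of cells with the matrix.

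The main features of the 40 genes were as follows. In S9-JAG1+ LMPs, *Lama1*, the α chain of the laminin first made in embryos, and *Nid1* were 4.48-fold and 3.68-fold higher than the mean of the other populations. *Itga8* (3.39-fold), *Itga1* (2.81-fold) and *Itga7* (3.40-fold, at a mean of 1.17 CPM) were higher as well. The call of *Itga8* was lost without S9-SCA-1+ cells in the fit. S9-SCA-1+ cells had another set, with *Itga4*, a receptor subunit for fibronectin and VCAM1, at 258 ± 36.5 CPM (counts scaled to library size; SD, n = 2) against 3.09 to 4.99 CPM in the other means, with more *Lama5* and with less *Lama4*, *Itga8*, *Itga11* and *Nid1*. OCPs and CBs shared a higher level of *Itgb8*, and CBs had the highest *Itga11*, a collagen receptor subunit. In S9-Pαhi LMPs, 1 member was called against the mean of the others, the low-count gene *Lamc3*. The subunit genes *Itgb1*, *Itgb5*, *Itga5*, *Itgav*, *Lamb1* and *Lamc1* each had a mean of at least 9.05 CPM per kilobase of exon in every population and passed the fold limit in none of the comparisons.

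Levels are CPM on library totals scaled by the TMM method. The totals lay between 20316583 and 29162751 counts, and the 40 genes took 0.164 to 0.253% of them. Up to 3 counts, or 0.101 to 0.149 CPM, cannot be told from absence, a limit for counting error only. Replicates of each population differed beyond sampling noise, the chi-square divided by its degrees of freedom lying at 7.8 to 76.3, and OCP replicate 2 stood farthest from its fellow libraries. Differences were tested over all 15125 genes with enough counts. All adjusted p are from edgeR's quasi-likelihood test, with the Benjamini-Hochberg method over these genes. A call required this p to be 0.1 or less and the log2 fold change to reach 1.2 in either direction. Each population was set against the mean of the other 4, and 4 pairs of populations were compared, 9 comparisons in all. These comparisons share libraries and are not independent of each other. The libraries hold bulk RNA, in which fewer cells of a type and less RNA per cell cannot be told apart.

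The sorts could be checked on the genes of the sorting markers. *Jag1* had a mean of 296 ± 67.9 CPM (SD, n = 3) in S9-JAG1+ LMPs and 119 ± 17.5 CPM (SD, n = 3) in CBs, and 11.8 to 19.7 CPM in the other means. *Sox9* had means of 437 CPM in OCPs and 535 CPM in CBs, against 11.0 to 62.3 CPM in the S9- populations, and *Ly6a*, the gene of SCA-1, had 3.23 CPM in S9-SCA-1+ cells against at most 0.247 CPM. *Pdgfra* had means of 442 ± 85.0 CPM in S9-Pαhi LMPs, 718 ± 44.8 CPM in OCPs, 864 ± 88.3 CPM in CBs and 247 ± 1.12 CPM in S9-JAG1+ LMPs (SD, n = 3 each). In S9-SCA-1+ cells, which the study took from PDGFRα-positive cells, it had 44.8 and 24.0 CPM and was called lower (log2 fold change -3.89 ± 0.22, adjusted p = 9.27e-09). *Col2a1*, by which the study describes CBs, is not among the reagents of its sorting methods. The levels of *Col2a1* were 989 ± 271 CPM in OCPs and 1536 ± 315 CPM in CBs (SD, n = 3 each), and these were not called apart (log2 fold change 0.64 ± 0.23, adjusted p = 0.0534). The 6 markers of myogenic precursors (*Pax3*, *Pax7*, *Lbx1*, *Met*, *Myf5*, *Myod1*) summed to 1496 and 1500.3 CPM in the S9-SCA-1+ libraries and to 1.93 to 10.7 CPM in the other 12 libraries, and all 6 were called higher there. Red blood cell markers (6 of the 8 listed were in the table) summed to 93.1 and 2518 CPM in S9-SCA-1+ replicates 2 and 3, and to 1.98 to 54.4 CPM elsewhere. The sums of the 8 leukocyte markers overlapped between the populations (11.8 to 16.8 CPM). Those of the 8 megakaryocyte markers were 16.3 to 18.7 CPM in CBs, 9.72 to 13.8 CPM in the LMPs and OCPs and 8.60 to 8.97 CPM in S9-SCA-1+ cells, most of it from *Gp1bb* (means of 7.75 to 16.5 CPM).

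Sequences around transcript starts were taken from RefSeq (GRCm38.p6). The table gave windows of 300 bases, 250 before the start and 50 after, for 25 of the 40 genes. The windows shown are those of the genes with a window that mark the S9-JAG1+ (*Nid1*), OCP and CB (*Itgb8*) and S9-SCA-1+ (*Itga4*, *Lama5*) patterns, 5′ to 3′ on the gene's strand. Capitals mark the E-box CAGCTG and the GC box GGGCGG or its complement CCGCCC. The SOX core ACAAT and the TATA box TATAAA were searched on both strands as well and were not present in these 4 windows. The positions are chr13:13437352-13437651 (*Nid1*, + strand), chr12:119238227-119238526 (*Itgb8*, − strand), chr2:79255176-79255475 (*Itga4*, + strand) and chr2:180225810-180226109 (*Lama5*, − strand).
Nid1: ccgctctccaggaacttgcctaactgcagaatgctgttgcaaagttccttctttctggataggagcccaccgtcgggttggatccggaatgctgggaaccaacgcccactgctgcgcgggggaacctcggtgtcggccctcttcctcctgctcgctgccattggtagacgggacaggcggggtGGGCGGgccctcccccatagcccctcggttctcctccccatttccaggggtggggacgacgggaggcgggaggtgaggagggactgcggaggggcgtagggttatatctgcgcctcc
Itgb8: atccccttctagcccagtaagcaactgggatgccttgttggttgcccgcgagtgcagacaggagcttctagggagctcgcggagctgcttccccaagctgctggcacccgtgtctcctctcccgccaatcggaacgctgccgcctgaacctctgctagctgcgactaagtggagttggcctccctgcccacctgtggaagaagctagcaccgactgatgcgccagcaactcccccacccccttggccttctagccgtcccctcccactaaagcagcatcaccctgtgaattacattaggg
Itga4: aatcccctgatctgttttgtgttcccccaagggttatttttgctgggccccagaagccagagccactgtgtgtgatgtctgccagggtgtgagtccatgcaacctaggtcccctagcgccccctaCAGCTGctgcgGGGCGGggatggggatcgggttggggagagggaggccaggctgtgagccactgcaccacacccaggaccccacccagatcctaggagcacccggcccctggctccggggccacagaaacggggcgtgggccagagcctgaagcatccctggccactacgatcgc
Lama5: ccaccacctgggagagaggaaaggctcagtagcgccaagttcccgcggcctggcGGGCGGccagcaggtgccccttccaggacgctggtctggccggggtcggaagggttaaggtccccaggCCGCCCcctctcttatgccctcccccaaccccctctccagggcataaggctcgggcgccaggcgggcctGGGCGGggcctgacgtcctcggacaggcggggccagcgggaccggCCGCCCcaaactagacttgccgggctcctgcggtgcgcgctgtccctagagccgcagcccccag

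The *Itga4* window held 1 E-box and 1 GC box, the *Nid1* window 1 GC box, the *Lama5* window 4 GC boxes and the *Itgb8* window none of the motifs. Of all 32851 windows of the table, 16.3% held the E-box, 35.7% the GC box, 31% the SOX core and 13.6% the TATA box. The GC content was 64.7% for *Nid1*, 60.7% for *Itgb8*, 64.3% for *Itga4* and 72.7% for *Lama5*, with a median of 52.7% over all windows. These matches are descriptions of letters, and binding was not measured.

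Among the laminin α genes, *Lama1* (Entrez 16772; chromosome 17, 67697127 to 67822645) separated S9-JAG1+ LMPs most. Its levels were 109, 134 and 160.0 CPM in S9-JAG1+ LMPs, 29.7, 30.9 and 33.6 CPM in S9-Pαhi LMPs, 33.4, 29.5 and 26.9 CPM in OCPs, 17.1, 15.02 and 18.5 CPM in CBs, and 52.8 and 49.3 CPM in S9-SCA-1+ cells. All S9-JAG1+ libraries lay above all others, the S9-SCA-1+ libraries came next, and the CB libraries lay lowest with no overlap, while S9-Pαhi LMPs and OCPs overlapped. *Lama1* was higher in S9-JAG1+ LMPs than in the mean of the others by 2.16 ± 0.09 (log2 fold change ± SE; adjusted p = 5.22e-10), and lower in CBs by a log2 fold change of -1.58 ± 0.12 (adjusted p = 8.52e-08). Between the LMP populations it was lower in S9-Pαhi LMPs (log2 fold change -2.10 ± 0.13, adjusted p = 1.17e-07).

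*Lama5* (Entrez 16776; chromosome 2, 180176373 to 180225904), the α chain of the laminin found in most later basement membranes, stood apart in S9-SCA-1+ cells. It lay between 17.2 and 27.8 CPM in the 12 libraries of the other populations and at 99.6 and 86.8 CPM in the S9-SCA-1+ libraries. The S9-SCA-1+ libraries did not overlap with any other, and of the other populations S9-JAG1+ LMPs lay below OCPs while the remaining pairs overlapped. The difference from the mean of the others was 1.97 ± 0.10 on the log2 scale (adjusted p = 3.26e-09).

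*Lama4* (Entrez 16775; chromosome 10, 38965515 to 39110188), the α chain known from vessel walls and mesenchyme, went the other way in S9-SCA-1+ cells. Its levels were 50.2, 49.6 and 48.1 CPM in S9-JAG1+ LMPs, 46.03, 55.4 and 52.3 CPM in S9-Pαhi LMPs, 68.5, 68.0 and 60.1 CPM in OCPs, 62.5, 61.8 and 61.2 CPM in CBs, and 14.8 and 15.5 CPM in S9-SCA-1+ cells. The S9-SCA-1+ libraries lay below all others, OCPs and CBs overlapped, and so did the LMP populations. Against the mean of the others, S9-SCA-1+ cells differed by a log2 fold change of -1.90 ± 0.09 (adjusted p = 1.35e-09).

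*Lama2*, the α chain of muscle laminin, had means from 13.9 CPM in S9-JAG1+ LMPs to 27.7 CPM in S9-SCA-1+ cells and was called in no comparison. *Lama3*, the α chain of epithelial laminin, was near the floor, with 0 to 36 counts per library. Its counts were 19, 10 and 36 in CBs and 0, 6 and 3 in OCPs, and it was called higher in CBs against the mean of the others (adjusted p = 0.000996) and against OCPs (adjusted p = 0.02). With so few reads no fold is given, and CBs overlapped with S9-JAG1+ LMPs, which had 11, 6 and 5 counts.

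**Figure D1:**
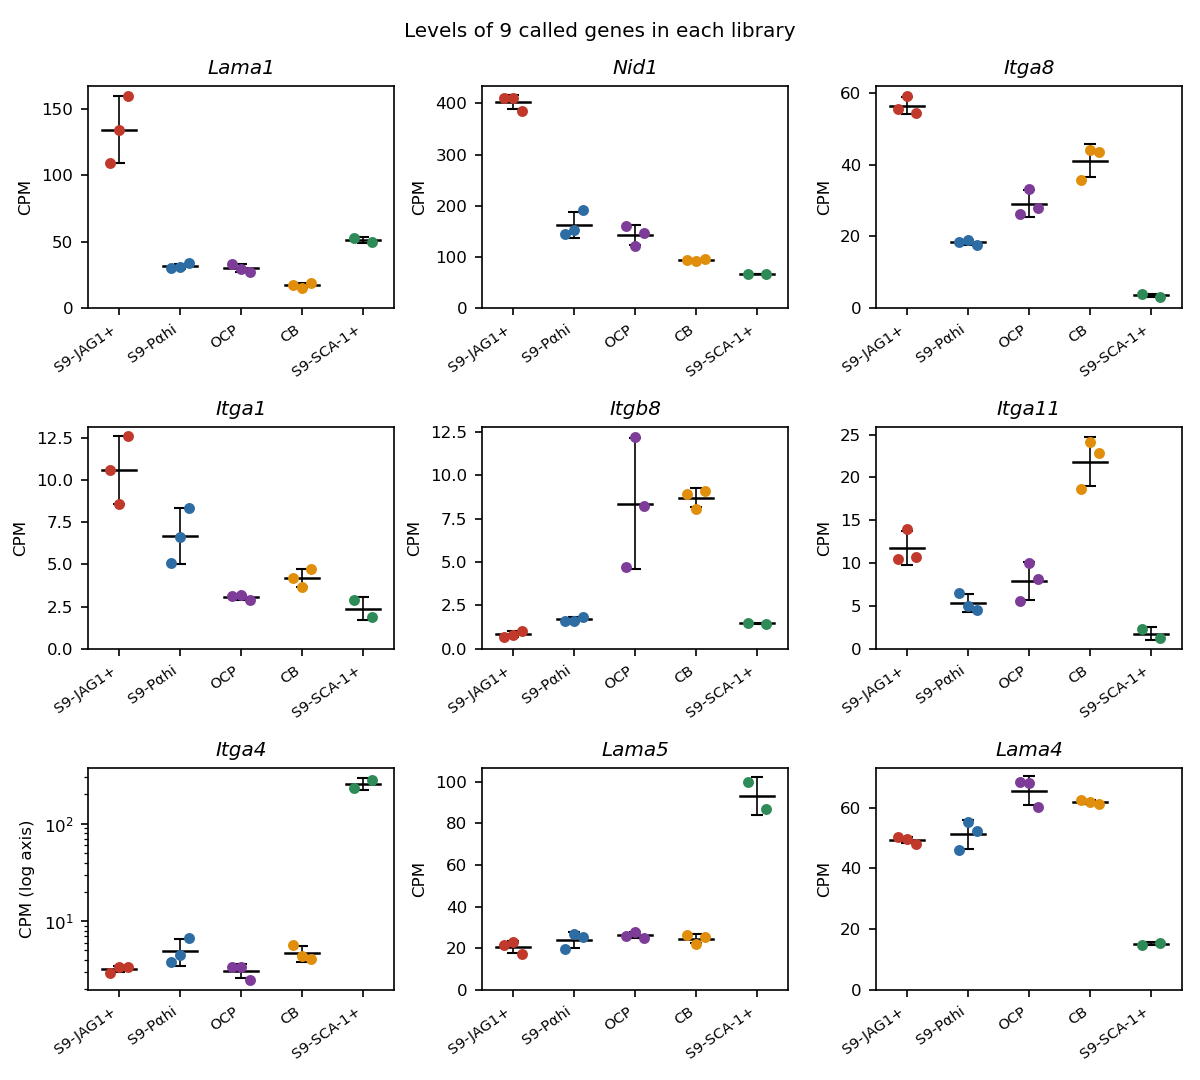
Levels in CPM (y-axis; a log axis for Itga4) of 9 genes called in at least 1 comparison, by population (x-axis). Points are libraries, bars are means and whiskers SDs (n = 3, or 2 for S9-SCA-1+ cells). Lama1 and Nid1 are highest in the 3 S9-JAG1+ libraries, Itga4 and Lama5 in the 2 S9-SCA-1+ libraries, and Itgb8 in OCPs and CBs, where 1 OCP library lies at 4.70 CPM and another at 12.2 CPM.

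Because CPM rise with the length of a transcript, the chains were compared with each other only as CPM per kilobase (kb) of the exon length that the authors deposited. On this scale *Lama1* made up 54.9 ± 5.35% (SD, n = 3) of the laminin α sum in S9-JAG1+ LMPs, 20.5 ± 1.80% in S9-Pαhi LMPs, 17.1 ± 1.28% in OCPs, 10.8 ± 0.981% in CBs (n = 3 each) and 28.4 ± 0.683% in S9-SCA-1+ cells (SD, n = 2). *Lama4* was the leading α chain in S9-Pαhi LMPs (52.4%), OCPs (58.7%) and CBs (62.4%), and *Lama5* in S9-SCA-1+ cells (43.2 ± 1.05%, SD, n = 2). The leading α chain was the same in every library of a population. The ratio of *Lama1* to *Lama5* per kb ranged from 6.10 to 11.2 in the S9-JAG1+ libraries, from 1.27 to 1.80 in those of S9-Pαhi LMPs and OCPs, and from 0.635 to 0.868 in those of CBs and S9-SCA-1+ cells. The summed laminin α level moved less than its makeup, with means from 16.2 CPM per kb in S9-Pαhi LMPs to 25.5 CPM per kb in S9-JAG1+ LMPs. Sums and shares are given as descriptions and were not tested.

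**Figure D2:**
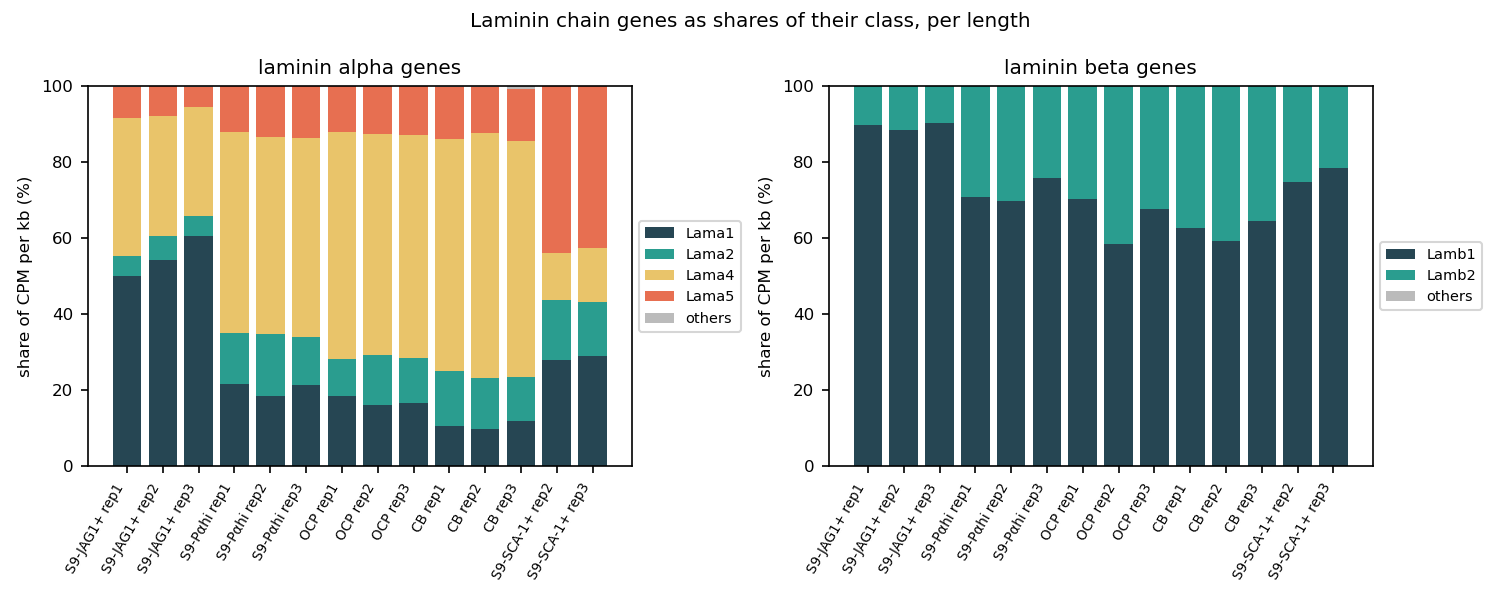
Share (%) of each laminin α gene (left) and laminin β gene (right) in the sum of its class, computed from CPM per kb, for each of the 14 libraries on the x-axis. Lama1 leads in the S9-JAG1+ libraries (50.03 to 60.6%), Lama4 in those of S9-Pαhi LMPs, OCPs and CBs, and Lama5 in the S9-SCA-1+ libraries.

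Of the laminin β genes, *Lamb1* had 293, 318 and 303 CPM in S9-JAG1+ LMPs and between 125 and 203 CPM in the other libraries. All S9-JAG1+ libraries were above the rest. The log2 fold change of 0.99 (adjusted p = 9.77e-09) was under the fold limit. *Lamb2* had its lowest mean in S9-JAG1+ LMPs, 34.5 ± 4.73 CPM, and its highest in CBs, 84.1 ± 10.4 CPM (SD, n = 3 each), also without a call. Per kb, *Lamb1* took 89.6 ± 0.951% of the β sum in S9-JAG1+ LMPs and 62.2 ± 2.70% in CBs (SD, n = 3 each). The γ class was *Lamc1* alone in practice, with means from 114 to 184 CPM. It was highest in S9-JAG1+ LMPs and S9-SCA-1+ cells, which overlapped, and the log2 fold changes of 0.50 and 0.38 were under the limit.

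*Lamb3*, a chain of epithelial laminins, and *Lamc3* had means under 1 CPM in every population. *Lamb3* had at most 3 counts in a library and was not tested. *Lamc3* had 13, 28 and 15 counts in S9-Pαhi LMPs, 14, 14 and 13 counts in CBs, 4, 3 and 7 counts in OCPs, 3, 1 and 0 counts in S9-JAG1+ LMPs and 2 and 4 counts in S9-SCA-1+ cells. It was called higher in S9-Pαhi LMPs than in the mean of the others (adjusted p = 0.000762), in S9-JAG1+ LMPs (adjusted p = 0.000515) and, in reverse, in OCPs (adjusted p = 0.0154) and S9-SCA-1+ cells (adjusted p = 0.00324) against S9-Pαhi LMPs. At this depth its level is a few reads and no fold is given. An antisense gene, *Gm13441*, overlaps 6.27% of its exon bases.

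Of the linkers, *Nid1* (Entrez 18073; chromosome 13, 13437602 to 13512275) formed steps from S9-JAG1+ LMPs to S9-SCA-1+ cells. It had 411, 410.2 and 386 CPM in S9-JAG1+ LMPs, 145, 152 and 192 CPM in S9-Pαhi LMPs, 160.1, 121 and 146 CPM in OCPs, 93.4, 91.2 and 95.4 CPM in CBs, and 66.0 and 66.7 CPM in S9-SCA-1+ cells. Only S9-Pαhi LMPs and OCPs overlapped among these populations. *Nid1* was higher in S9-JAG1+ LMPs by 1.88 ± 0.08 (adjusted p = 4.86e-10) and lower in S9-SCA-1+ cells by a log2 fold change of -1.37 ± 0.12 (adjusted p = 4.49e-07), each against the mean of the others. Against S9-Pαhi LMPs, S9-SCA-1+ cells had a log2 fold change of -1.30 ± 0.13 (adjusted p = 3.63e-06), which fell to -1.17 and under the fold limit without S9-Pαhi replicate 3.

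*Nid2*, the other nidogen, had means of 150.1 CPM in S9-Pαhi LMPs to 256 CPM in S9-SCA-1+ cells and was called in no comparison. Per kb the ratio of *Nid1* to *Nid2* was 1.83 ± 0.0437 in S9-JAG1+ LMPs, 0.875 ± 0.0435 in S9-Pαhi LMPs, 0.564 ± 0.0715 in OCPs, 0.371 ± 0.0365 in CBs (SD, n = 3 each) and 0.21 ± 0.0185 in S9-SCA-1+ cells (SD, n = 2). The libraries of the 5 populations did not overlap in this ratio. The exons of *Nid2* share 8.45% of their bases with *Rtraf* on the other strand, which had means of 85.2 to 97.4 CPM, so that part of the *Nid2* counts could belong to *Rtraf* if strand was not used. Perlecan (*Hspg2*) had means of 156 to 228 CPM and was called in no comparison.

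Among the integrin α genes, *Itga4* (Entrez 16401; chromosome 2, 79255426 to 79333114) had the largest difference of the 40 genes. Its levels were 232 and 284 CPM in the S9-SCA-1+ libraries. In the others they were 2.95, 3.35 and 3.37 CPM in S9-JAG1+ LMPs, 3.78, 4.47 and 6.72 CPM in S9-Pαhi LMPs, 3.37, 3.42 and 2.50 CPM in OCPs, and 5.72, 4.34 and 4.04 CPM in CBs. The S9-SCA-1+ libraries lay far above the rest. S9-JAG1+ LMPs overlapped with OCPs, and both lay below S9-Pαhi LMPs and CBs, which overlapped. The difference from their mean was 6.05 ± 0.12 on the log2 scale, or 66.1-fold (adjusted p = 1.88e-13), and 5.89 to 6.18 over all alternatives. The level was 232 CPM in the library with 93.1 CPM of red blood cell markers and 284 CPM in that with 2518 CPM. The 6 myogenic markers summed to 1496 to 1500.3 CPM in these libraries and to 1.93 to 10.7 CPM in the others. The part of red blood cells and of myogenic precursors in the result was not tested.

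*Itga4* was also called lower in S9-JAG1+ LMPs (log2 fold change -1.85) and in OCPs (-1.94) against the mean of the others, a mean that holds the S9-SCA-1+ cells. With these cells left out of the fit, the values were -0.36 (adjusted p = 0.139) and -0.46 (adjusted p = 0.145), and neither was called. *Cerkl* on the other strand overlaps 8.04% of the exon bases of *Itga4* and had a mean of 4.04 CPM in S9-SCA-1+ cells. *Itga9*, the α subunit nearest in kind to *Itga4*, had means of 47.2 to 69.2 CPM and was called in no comparison. Of the shared ligand genes, *Vcam1* had a mean of 151 ± 4.66 CPM (SD, n = 3) in S9-JAG1+ LMPs and 21.2 CPM in S9-SCA-1+ cells.

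*Itga8* (Entrez 241226; chromosome 2, 12106632 to 12301985), a subunit that binds nephronectin and fibronectin with *Itgb1*, was lowest where *Itga4* was highest. It had 55.6, 59.2 and 54.6 CPM in S9-JAG1+ LMPs, 18.3, 19.1 and 17.5 CPM in S9-Pαhi LMPs, 26.1, 33.3 and 27.99 CPM in OCPs, 35.8, 44.2 and 43.5 CPM in CBs, and 3.85 and 3.17 CPM in S9-SCA-1+ cells. No population overlapped with another. The log2 fold change was -3.25 ± 0.14 in S9-SCA-1+ cells (adjusted p = 3.96e-10) and 1.76 ± 0.08 in S9-JAG1+ LMPs (adjusted p = 1.13e-09). Without the S9-SCA-1+ cells in the fit the second value was 1.02, under the fold limit, while the pair of LMP populations still differed (S9-Pαhi against S9-JAG1+, log2 fold change -1.62 ± 0.11, adjusted p = 2.49e-07). The gene of its ligand, *Npnt*, had 6.21 CPM in S9-JAG1+ LMPs and 40.0 CPM in S9-SCA-1+ cells, the opposite order for these populations. *Npnt* means were 17.3 CPM in S9-Pαhi LMPs, 29.3 CPM in OCPs and 27.9 CPM in CBs. Among these, both *Npnt* and *Itga8* were lowest in S9-Pαhi LMPs, so that the opposite order did not hold over all populations.

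*Itga5* and *Itgav*, which bind fibronectin and other ligands with an RGD motif, were the leading α genes per kb in the populations other than S9-SCA-1+ cells. There *Itga4* led, and *Itga9* (15.2% of the α sum) also exceeded *Itgav* (14.1%). *Itga5* had means of 84.8 to 100.1 CPM in 4 populations and 57.4 ± 3.71 CPM (SD, n = 2) in S9-SCA-1+ cells. *Itgav* ranged from 182 ± 13.4 CPM (SD, n = 3) in S9-JAG1+ LMPs to 63.8 ± 7.55 CPM (SD, n = 2) in S9-SCA-1+ cells. Both lay lowest in S9-SCA-1+ cells, with log2 fold changes of -0.70 for *Itga5* (adjusted p = 3.89e-06) and -1.04 for *Itgav* (adjusted p = 1.11e-05), which missed the fold limit. *Itga2b*, the platelet subunit, had at most 1.00 CPM as a mean.

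Of the collagen receptor subunits, *Itga11* (Entrez 319480; chromosome 9, 62677855 to 62783979) was highest in CBs. It had 10.49, 14.0 and 10.7 CPM in S9-JAG1+ LMPs, 6.51, 5.00 and 4.53 CPM in S9-Pαhi LMPs, 5.56, 10.0 and 8.17 CPM in OCPs, 18.6, 24.1 and 22.8 CPM in CBs, and 2.31 and 1.25 CPM in S9-SCA-1+ cells. The CB libraries lay above and the S9-SCA-1+ libraries below all others, and S9-Pαhi LMPs and OCPs overlapped. The log2 fold change was 2.00 ± 0.17 in CBs (adjusted p = 2.82e-07) and -2.52 ± 0.28 in S9-SCA-1+ cells (adjusted p = 6.72e-06), each against the mean of the others. CBs also exceeded OCPs, by 1.46 ± 0.23 on the log2 scale (adjusted p = 0.000412).

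*Itga1* (Entrez 109700; chromosome 13, 114958079 to 115101964), a second collagen receptor subunit, had another order. Its levels were 10.6, 8.59 and 12.6 CPM in S9-JAG1+ LMPs, 5.08, 6.62 and 8.37 CPM in S9-Pαhi LMPs, 3.12, 3.18 and 2.89 CPM in OCPs, 4.203, 3.69 and 4.71 CPM in CBs, and 2.87 and 1.89 CPM in S9-SCA-1+ cells. The S9-JAG1+ libraries were highest without overlap, and those of S9-Pαhi LMPs came next. *Itga1* was higher in S9-JAG1+ LMPs by 1.49 ± 0.15 (adjusted p = 3.78e-06). The lower value in S9-SCA-1+ cells, a log2 fold change of -1.21 ± 0.22 (adjusted p = 0.000647), was at the fold limit. It passed under this limit in 7 of 23 alternatives, down to a size of -0.94. The remaining collagen receptor genes, *Itga10* and *Itga2*, had means of 2.39 to 3.48 CPM and of at most 0.105 CPM.

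Laminin receptor subunits were few. *Itga6* had 10.4, 11.51 and 10.4 CPM in S9-Pαhi LMPs and 18.9 to 29.8 CPM in the other libraries, so that S9-Pαhi LMPs lay below all others. The log2 fold change of -1.06 (adjusted p = 7.16e-05) was under the fold limit. *Itga3* had means of 0.923 to 2.81 CPM. *Itga7*, known from muscle, had 0.728, 1.34 and 1.43 CPM in S9-JAG1+ LMPs, 0.488, 0.226 and 0.199 CPM in S9-Pαhi LMPs, 0.406, 0.523 and 0.542 CPM in OCPs, 0.773, 1.13 and 0.55 CPM in CBs, and 0.035 and 0.178 CPM in S9-SCA-1+ cells. It was called higher in S9-JAG1+ LMPs (1.76 ± 0.34, adjusted p = 0.000826) and lower in S9-SCA-1+ cells, where it had 1 and 5 counts (adjusted p = 0.0039). *Itgb4*, the β subunit of hemidesmosomes, had 8 to 25 counts per library and was called in no comparison.

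**Figure D3:**
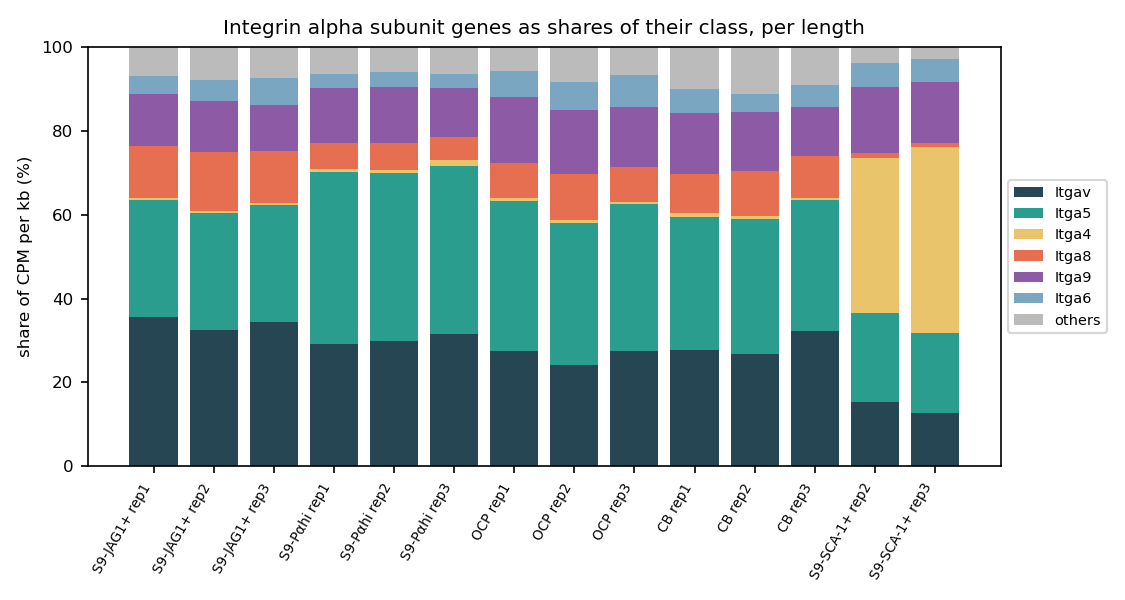
Share (%) of 6 integrin α genes and of all others together in the sum of the integrin α class, computed from CPM per kb, for each of the 14 libraries on the x-axis. Itga5 and Itgav together lead in 12 libraries, and Itga4 takes 40.8% on average in the 2 S9-SCA-1+ libraries.

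Per kb, *Itga4* made up 40.8% of the integrin α sum in S9-SCA-1+ cells and under 1% as a mean in every other population. *Itga5* took 40.4% in S9-Pαhi LMPs, 34.9% in OCPs, 31.7% in CBs, 28.04% in S9-JAG1+ LMPs and 19.97% in S9-SCA-1+ cells, and *Itgav* from 14.1% in S9-SCA-1+ cells to 34.1% in S9-JAG1+ LMPs. The ratio of *Itga4* to *Itga5* was 1.76 and 2.36 in the S9-SCA-1+ libraries and at most 0.0318 in the others. The summed α level differed less, from 52.4 CPM per kb in S9-Pαhi LMPs to 75.5 CPM per kb in S9-JAG1+ LMPs. In each population it was below the level of *Itgb1* on the same scale (82.3 to 118 CPM per kb).

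Among the integrin β genes, *Itgb1*, the common partner of most α subunits, had means of 345 to 495 CPM and took 61.4 to 79.8% of the β sum per kb. *Itgb5*, a partner of *Itgav*, had its highest means in S9-Pαhi LMPs (163 ± 16.1 CPM) and OCPs (160.3 ± 22.3 CPM; SD, n = 3 each), which overlapped, and lower means in S9-JAG1+ LMPs (95.1 CPM) and S9-SCA-1+ cells (87.3 CPM). Neither gene was called.

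*Itgb8* (Entrez 320910; chromosome 12, 119162803 to 119238276), which pairs with *Itgav* and releases active TGFβ from its latent form, was low in the S9- populations. It had 0.685, 0.796 and 1.03 CPM in S9-JAG1+ LMPs, 1.63, 1.62 and 1.84 CPM in S9-Pαhi LMPs and 1.504 and 1.46 CPM in S9-SCA-1+ cells, against 4.70, 12.2 and 8.21 CPM in OCPs and 8.91, 8.07 and 9.11 CPM in CBs. All S9+ libraries lay above all S9- libraries, and OCPs and CBs overlapped. The log2 fold change was 2.01 ± 0.20 in OCPs (adjusted p = 6.1e-06), 2.08 ± 0.19 in CBs (adjusted p = 8.46e-07) and -2.12 ± 0.27 in S9-JAG1+ LMPs (adjusted p = 3.01e-05), each against the mean of the others. OCPs exceeded S9-Pαhi LMPs by 2.30 ± 0.28 (adjusted p = 0.000108). The highest OCP value was that of replicate 2, the library farthest from its fellows, and without it OCPs were still called (1.65 against the mean of the others).

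*Itgb3* had 2.79, 2.53 and 1.22 CPM in CBs and 0.35 to 1.44 CPM elsewhere, so that CBs overlapped with other libraries. It was called higher in CBs (1.49 ± 0.30, adjusted p = 0.000681). *Itgb6* had at most 6 counts in a library and was not tested.

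The leukocyte integrins were at or near the floor. *Itgad* and *Itgax* had 0 counts in all 14 libraries, *Itgam* had 2 counts in 1 library, and *Itgb2*, the β subunit that these need, had at most 2 counts. *Itgae* had 9 to 27 counts per library and no call. *Itgal* was low in all populations, with 1.64 and 1.25 CPM in S9-SCA-1+ cells, 0.447, 0.714 and 0.648 CPM in S9-Pαhi LMPs, 0.73, 0.713 and 0.796 CPM in OCPs, 0.471, 0.787 and 0.667 CPM in CBs and 0.3, 0.126 and 0.277 CPM in S9-JAG1+ LMPs. The S9-SCA-1+ libraries were above and the S9-JAG1+ libraries below all others. *Itgal* was called higher in S9-SCA-1+ cells (1.49 ± 0.27, adjusted p = 0.000548) and lower in S9-JAG1+ LMPs (log2 fold change -1.76 ± 0.33, adjusted p = 0.000625), and the 8 leukocyte markers summed to values within the range elsewhere in both S9-SCA-1+ libraries. Its calls between S9-Pαhi LMPs and S9-JAG1+ LMPs or S9-SCA-1+ cells were lost under 2 and 3 alternatives. *Itgb7* had 7 to 41 counts per library. Its call in S9-SCA-1+ cells (log2 fold change -1.24, adjusted p = 0.0621), where it had 9 and 10 counts, was lost in 9 of 23 alternatives.

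**Figure D4:**
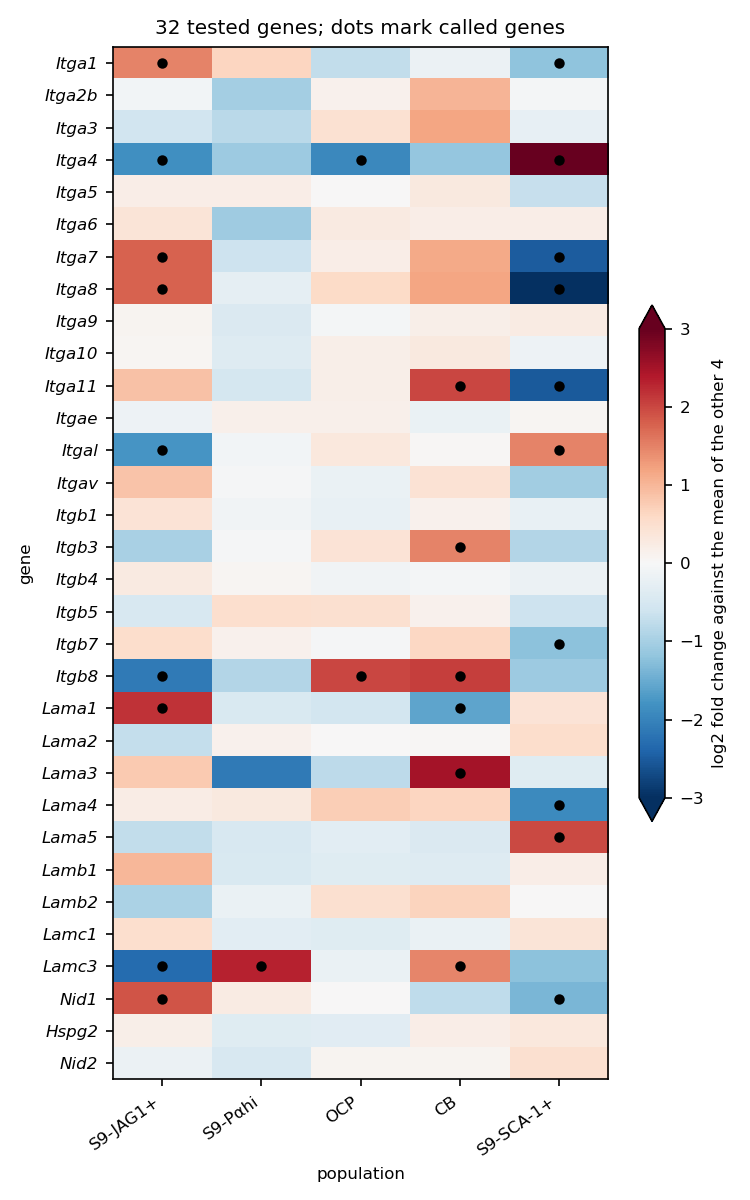
Log2 fold change (colour) of the 32 tested genes (rows) in each population against the mean of the other 4 (columns), on a scale limited to 3 in either direction. Dots mark called genes (adjusted p of 0.1 or less, log2 fold change of 1.2 or more in either direction). S9-SCA-1+ cells hold 10 dots, S9-JAG1+ LMPs 9, CBs 6, OCPs 2 and S9-Pαhi LMPs 1.

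Over the 40 genes, 32 had enough counts to be tested, and 8 did not. A mean of at least 1 CPM in some population was reached by 27 genes. Of these, 10 had their highest mean in S9-JAG1+ LMPs, 8 in CBs, 7 in S9-SCA-1+ cells and 1 each in S9-Pαhi LMPs and OCPs. At least 1 call was made for 15 genes in the 9 comparisons. The filter kept genes with counts in any population, so that a gene expressed in 1 population could pass through it alone, and the following counts are a description.

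Against the mean of the other 4 populations, 5 of the 32 genes were higher in S9-JAG1+ LMPs (*Itga1*, *Itga7*, *Itga8*, *Lama1*, *Nid1*), where 2.88% of all tested genes were, and 4 were lower (*Itga4*, *Itgal*, *Itgb8*, *Lamc3*; 7.7% of all). The median log2 fold change was 0.19 over the 32 genes and -0.01 over all genes. In S9-Pαhi LMPs 1 was higher (*Lamc3*; 1.53% of all) and 0 were lower (2.31% of all), with medians of -0.29 and -0.01. Without the fold limit, 12 of the 32 were lower and 6 higher there by edgeR's adjusted p. At an unadjusted edgeR p under 0.05, also without this limit, 15 were lower. With the fold limit, DESeq2 called 0 lower, as edgeR did, both with S9-SCA-1+ cells in the fit. Without these cells, edgeR called *Itga7*, *Itga11* and *Itgb8* lower in S9-Pαhi LMPs (log2 fold changes -1.32, -1.23 and -1.21), and also the low-count gene *Lama3*. In OCPs 1 was higher (*Itgb8*; 3.37% of all) and 1 lower (*Itga4*; 1.64% of all), with medians of 0.01 and 0.02. In CBs 5 were higher (*Itga11*, *Itgb3*, *Itgb8*, *Lama3*, *Lamc3*; 11% of all) and 1 was lower (*Lama1*; 1.71% of all), with medians of 0.20 and 0.05. In S9-SCA-1+ cells 3 were higher (*Itga4*, *Itgal*, *Lama5*; 4.46% of all) and 7 were lower (*Itga1*, *Itga7*, *Itga8*, *Itga11*, *Itgb7*, *Lama4*, *Nid1*; 6.8% of all), with medians of -0.20 and -0.01.

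Between pairs of populations, 2 of the 32 were higher in S9-Pαhi than in S9-JAG1+ LMPs (*Itgal*, *Lamc3*; 4.42% of all tested genes) and 4 were lower (*Itga7*, *Itga8*, *Lama1*, *Nid1*; 2.58% of all). In OCPs against S9-Pαhi LMPs, 1 was higher (*Itgb8*; 3.48% of all) and 1 lower (*Lamc3*; 1.36% of all). In CBs against OCPs, 3 were higher (*Itga11*, *Lama3*, *Lamc3*; 6.6% of all) and 0 were lower (1.16% of all), and the call of *Lamc3* was lost in 8 of 22 alternatives. Without the fold limit, 3 were lower in CBs by edgeR's adjusted p and 3 at an unadjusted edgeR p under 0.05. With the fold limit, DESeq2 called 0 lower, as edgeR did. In S9-SCA-1+ cells against S9-Pαhi LMPs, 3 were higher (*Itga4*, *Itgal*, *Lama5*; 4.96% of all) and 6 were lower (*Itga1*, *Itga8*, *Itga11*, *Lama4*, *Lamc3*, *Nid1*; 5.58% of all).

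The genes around the receptors and the basement membrane were described from lists written with earlier results known. Of 26 integrin adaptors and activators, such as talins and kindlins, 23 were tested. Their summed level was 2397 to 2655 CPM in the libraries of 4 populations and 2003 and 2091 CPM in S9-SCA-1+ cells. In the comparisons with the mean of the others, *Parvg* was called higher in OCPs (mean 1.10 ± 0.861 CPM, SD, n = 3) and the tensins *Tns3* and *Tns1*, which tie integrins to actin, were called lower in S9-SCA-1+ cells (log2 fold changes -1.77 and -1.24). The median log2 fold change of the list was -0.04 in S9-JAG1+ LMPs, 0.01 in S9-Pαhi LMPs, 0.06 in OCPs, 0.03 in CBs and -0.13 in S9-SCA-1+ cells.

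Of 17 genes of the dystroglycan complex, the other main laminin receptor, and of its glycosylation, 16 were tested. *Dag1* itself had means of 96.3 to 137 CPM and was not called. *Dmd* (dystrophin) was called lower in S9-SCA-1+ cells (7.39 against 11.9 to 29.4 CPM). *Sspn* was called higher in CBs (20.2 ± 2.87 CPM, SD, n = 3) and lower, as was *Sgcd*, in S9-JAG1+ LMPs.

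Of 22 other basement membrane genes, 20 were tested. All calls in CBs (7 genes) and OCPs (3 genes) were of higher levels, while S9-JAG1+ LMPs had 1 higher and 6 lower and S9-SCA-1+ cells 2 higher and 5 lower. Calls over all tested genes leaned the same way, with 11% higher and 1.71% lower in CBs, 3.37% and 1.64% in OCPs, 2.88% and 7.7% in S9-JAG1+ LMPs and 4.46% and 6.8% in S9-SCA-1+ cells. The largest differences were those of *Smoc2*, at 69.3 ± 14.7 CPM (SD, n = 3) in CBs and 0.864 CPM in S9-SCA-1+ cells, and of *Ntn1* (netrin), at 184 ± 33.2 and 179 ± 82.7 CPM in OCPs and CBs (SD, n = 3 each) and 6.34 to 29.4 CPM elsewhere. *Col4a6*, a collagen IV chain, was called higher in S9-SCA-1+ cells, at 9.31 ± 1.03 CPM (SD, n = 2). The main collagen IV genes *Col4a1* and *Col4a2* had means of 238 to 616 CPM and of 140.4 to 312 CPM, both highest in S9-JAG1+ LMPs, without a call.

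Of 26 other integrin ligands, 18 were tested. In CBs all 8 called genes were higher, and in S9-SCA-1+ cells 1 was higher (*Npnt*) and 10 were lower, with a median log2 fold change of -1.51. In OCPs 5 were higher and 1 lower, in S9-Pαhi LMPs 2 and 2, and in S9-JAG1+ LMPs 2 and 4. The shares of all tested genes were those given for the basement membrane genes, and 1.53% higher and 2.31% lower in S9-Pαhi LMPs. *Thbs1* had 176 ± 27.8 CPM in CBs and 69.2 ± 27.7 CPM in OCPs (SD, n = 3 each), and 10.7 to 16.1 CPM in the S9- populations. *Spp1* (osteopontin), a ligand of *Itgav* and *Itga4*, had at most 3.45 CPM as a mean, in CBs. *Tnc* (tenascin C) had 96.1 ± 16.2 CPM in CBs and 38.9 ± 39.7 CPM in S9-JAG1+ LMPs (SD, n = 3 each), where the libraries differed widely.

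Markers of other cell types that moved with a population were also counted. Of 8 endothelial markers, *Kdr* was called higher in S9-SCA-1+ cells (6.09 and 10.9 CPM), and the list summed to 22.0 and 26.3 CPM there and to 9.34 to 18.8 CPM elsewhere. The list did not move as a whole. *Egfl7* was also highest in S9-SCA-1+ cells (mean 10.4 CPM), without a call. *Pecam1*, *Cdh5*, *Tek* and *Tie1* had their highest means in S9-Pαhi LMPs, and *Emcn* and *Esam* in OCPs. Of 7 glial and neural crest markers, 5 were tested, and their sum was 9.73 to 29.3 CPM in OCPs and CBs and 3.90 to 8.01 CPM in the S9- populations, the same split as *Itgb8*. The 10 ectoderm markers, of which 5 were tested, summed to 13.4 to 21.3 CPM in OCPs and CBs and to 5.66 to 12.6 CPM elsewhere. *Krt18* had means of 7.23 CPM in OCPs and 10.1 CPM in CBs, and *Epcam* had 5.83 CPM in CBs. *Krt8* and *Krt19* had their highest means in S9-JAG1+ LMPs (3.21 and 0.391 CPM), and *Trp63* in S9-SCA-1+ cells (1.01 CPM). The remaining ectoderm markers had theirs in CBs. The part of such cells in the differences of the integrin and laminin genes was not tested.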

How the data were processed

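RNA was sequenced from 14 libraries of 5 sorted populations. According to the methods of the study, single-end reads of poly(A)+ RNA were aligned with STAR to mm10, with 1 position kept per read, and reads starting in a RefSeq exon were counted with qCount of QuasR; use of strand and the way exon lengths were computed are not given in the sources used here. The authors deposited whole-number counts per Entrez gene without normalization. Of 24454 identifiers, 24374 were given a symbol (the other 80 held 0.358% of counts), and positions came from GRCm38.

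Members, gene lists and comparisons were chosen with earlier results of these data known. Counts were fitted in R 4.3.3 with edgeR 4.0.16 (filterByExpr by population, TMM, a mean per population, quasi-likelihood F test, biological coefficient of variation 13.4%). The standard error is the log2 fold change divided by the square root of F. Every member is counted, some genes are not reported here, called members are given by library, and of each list at most 4 called genes with the largest log2 fold change and a mean of at least 1 CPM were named by rule; *Gp1bb*, *Vcam1*, *Npnt*, *Dag1*, *Sgcd*, *Col4a1* and *Col4a2* were named after their values were seen. Alternatives were DESeq2 1.42.0 size factors and Wald test, unscaled totals, other filters and limits, a replicate block, longest transcripts for lengths, fits without CBs or S9-SCA-1+ cells, and each library left out. The procedure was tested on simulated data. Python 3.11.15 with pandas 2.3.3 and matplotlib 3.10.9 drew the figures.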

Additional observations from a re-analysis of the deposited data

How the results depend on the processing

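Of 48 calls of integrin and laminin genes, 39 were kept under every alternative in which the gene was tested. Of the others, 9 were lost under at least 1 alternative, and 0 changed direction. Without the fold limit, the calls were 23 in S9-JAG1+ LMPs, 18 in S9-Pαhi LMPs, 13 in OCPs, 21 in CBs and 22 in S9-SCA-1+ cells against the mean of the others, and 21 (S9-Pαhi against S9-JAG1+ LMPs), 10 (OCPs against S9-Pαhi LMPs), 13 (CBs against OCPs) and 19 (S9-SCA-1+ cells against S9-Pαhi LMPs) in the pairs. A filter of at least 1 CPM in 3 libraries removed the called low-count genes *Lama3*, *Lamc3* and *Itgal*, whose calls could not be checked there. With this filter the calls were 0 in S9-Pαhi LMPs, 1 in OCPs against S9-Pαhi LMPs and 1 in CBs against OCPs. For S9-Pαhi LMPs against the mean of the others, 2 calls were made without CBs, 5 without S9-SCA-1+ cells (a fit chosen after *Itga4* was seen), and 1 to 2 with a library left out, 2 without S9-Pαhi replicate 3 or OCP replicate 1. For OCPs, 1 call was made without S9-SCA-1+ cells. The other counts stayed within 1.5 times, and the shares of *Lama1*, *Lama2*, *Lama4*, *Lama5*, *Lamb1*, *Lamb2*, *Itgav*, *Itga4*, *Itga5* and *Itga8* moved by at most their SD. With the length of the longest transcript, the share of *Itga6* among the α genes went from 3.42 to 4.72% in S9-Pαhi LMPs and from 6.85 to 9.29% in OCPs, that of *Itga1* from 2.35 to 1.26% in S9-JAG1+ LMPs, and that of *Itgb1* among the β genes from 69.5 to 72.3% in CBs, each by more than its SD. *Itgb8* went from 1.94 to 0.675% there.

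Same-numbered libraries did not deviate together: 4 of 26 pairs had a correlation over 0.1 (range -0.181 to 0.308), and 5 of 14 libraries correlated best with their own number. With the replicate block the calls were 9, 1, 2, 7 and 10 against the mean of the others and 6, 2, 3 and 8 in the pairs, in the order given above. Depth limits the genes under 1 CPM, where 1 CPM stands for 20.1 to 29.7 reads.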
